A study of Homo sapiens with 6 samples.

Results

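The transcriptome described here is that of parental HG3 cells, the control group of a study of resistance to fludarabine, a purine nucleoside drug used in chronic lymphocytic leukaemia (CLL). HG3 is an established lymphoblastoid line, obtained by infecting a CLL clone with Epstein-Barr virus, and every library of the series carries that virus-transformed background. The members are the 3 control libraries, from pools numbered 17, 18 and 28, out of 6 libraries in all; the other 3 came from pools labelled fludarabine-resistant and were not used. The series is titled as transposon mutagenesis, but its labels do not say what the control pools carried, whether they were cultured with a vehicle, or whether they were separate cultures. The spread given below is therefore the spread between these 3 libraries of 1 cell line, which may be technical. Total RNA was sequenced, and the level of each gene was deposited as FPKM, fragments per kilobase of transcript, scaled to the number of fragments in the library. Of 23619 symbols in each file, 18874 were protein-coding and are described here; genes of microRNAs, small nucleolar and other small RNAs were set aside; they held 79.5% to 83.3% of each library's summed FPKM.

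Mature B cells recognise antigen through a membrane immunoglobulin bound to the signalling chains CD79A and CD79B, and their identity is held by transcription factors such as PAX5 and EBF1. Epstein-Barr virus drives B cells into continuous growth, and one of its latent proteins imitates the CD40 receptor, so transformed lines are known for NF-kB target genes, activation antigens and abundant antigen presentation. CLL cells are CD5-positive B cells, and their survival is known to lean on BCL2 and on signals through the B cell receptor.

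Protein-coding genes at a mean FPKM of at least 1 numbered 10392, which is 55.1% of all protein-coding symbols. A total of 5551 (29.4%) reached 10, 723 (3.83%) reached 100 and 117 reached 1000, and 2785 were listed at 0 in every library. The number at or over 1 was 10376, 10287 and 10354 in controls 17, 18 and 28, so the libraries differed little in how many genes they detected. The signal itself was concentrated: the 100 highest genes held 53.0%, 54.6% and 51.1% of the summed protein-coding FPKM in controls 17, 18 and 28, and the 10 highest held 14.6%, 14.6% and 13.9%. Of the 100 highest, 62 encoded ribosomal proteins, 16 histones and 5 translation factors.

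Low values moved in whole fragments, and this gave the depth. One fragment in a transcript of 1 kb was worth 0.0693, 0.0679 and 0.0559 FPKM in controls 17, 18 and 28, equal to about 14400000, 14700000 and 17900000 fragments. A level of 1 FPKM in such a transcript rests on 14.4 to 17.9 fragments and has a counting error of 23.7% to 26.3%, while 3 fragments correspond to 0.168 to 0.208 FPKM, the level up to which a gene listed at 0 could lie. These figures cover counting error only.

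**Figure D1:**
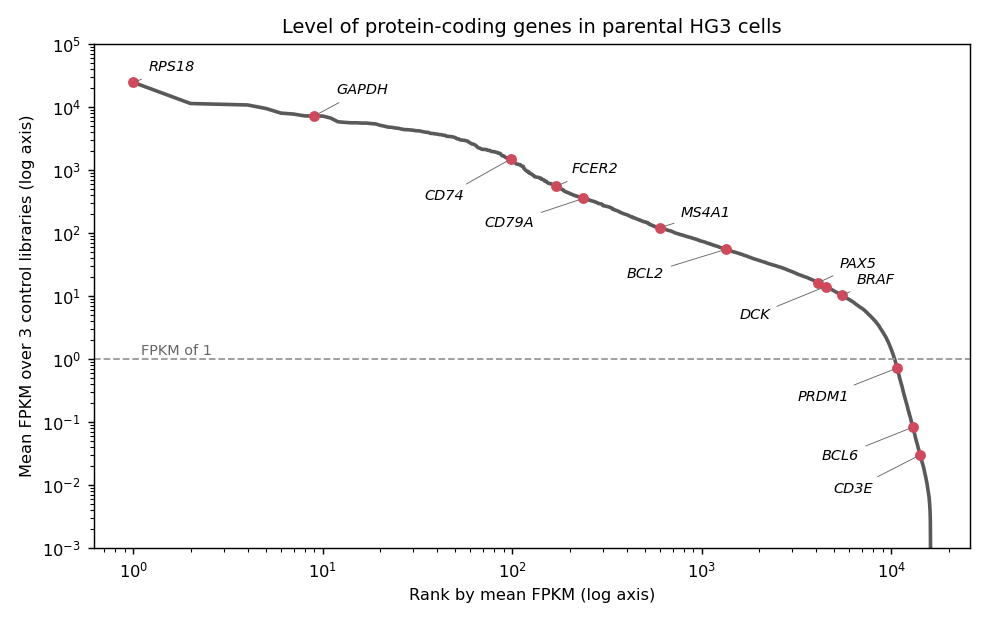
Mean FPKM over the 3 control libraries (log axis) against rank (log axis) for all protein-coding genes with a value above 0, with selected genes as red points and an FPKM of 1 as the dashed line. The curve runs from RPS18 at 24556 past CD79A at 355 and PAX5 at 16.3 to BCL6 at 0.083, and it bends downward where levels fall under 10.

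The promoters of the most abundant classes are shown here because their letters differ between classes of gene with similar levels. Sequences were taken from RefSeq on GRCh38.p14, which had promoters for 15068 of the protein-coding symbols; each runs 5′ to 3′ on the gene's own strand. Messages of the translation machinery are known to begin with a run of pyrimidines, the TOP element, by which their translation is tied to growth signals. The 40 bases centred on the start site (20 before, 20 from the start on) are given for 4 ribosomal protein genes and for GAPDH, a glycolytic gene of similar level, with capitals marking any of 5 pyrimidine words, which can overlap (the word CTTTTC, the second word CTTTCC, another word CCTTTT, the further word CTCTTT and finally TCTTTC):
RPS14 (chr5:150449720-150449759, minus strand): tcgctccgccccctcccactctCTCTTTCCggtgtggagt
RPS6 (chr9:19380217-19380256, minus strand): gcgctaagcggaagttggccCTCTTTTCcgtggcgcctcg
RPL9 (chr4:39458903-39458942, minus strand): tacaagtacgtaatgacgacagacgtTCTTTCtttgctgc
RPL35 (chr9:124861938-124861977, minus strand): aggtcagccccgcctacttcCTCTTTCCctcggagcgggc
GAPDH (chr12:6535244-6535283, plus strand): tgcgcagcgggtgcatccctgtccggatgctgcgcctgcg

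In RPS6 and RPL35 the capitals begin at the start site itself, and GAPDH has none. The 4 ribosomal genes shown are examples that hold such a word. RPS18, RPLP0, RPL41 and RPL36, also among the highest genes, held none at positions -10 to 14. Over positions -10 to 14 around the start, on the gene strand, 33 of 67 ribosomal protein promoters (49.3%) held one of these words, against 3.88% of all promoters and 37.1% of those of genes at or over 1000 FPKM. The class at or over 1000 FPKM is not separate from the ribosomal list, which gave 67 of its 117 genes. These are matches of letters, not evidence of a working element.

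Histone H2B genes are known for an octamer element and a TATA box, and class II antigen genes for a Y box. The 130 bases before the start site are given for a pair of histone H2B genes, a pair of class II genes and CD79A, with capitals marking the octamer ATTTGCAT and the Y box CTGATTGG on either strand and, in the histone genes, TATAAA:
HIST1H2BJ (chr6:27132796-27132925, minus strand): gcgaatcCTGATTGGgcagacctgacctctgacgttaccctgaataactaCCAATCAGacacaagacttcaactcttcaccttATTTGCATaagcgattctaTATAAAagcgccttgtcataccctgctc
HIST1H2BK (chr6:27146859-27146988, minus strand): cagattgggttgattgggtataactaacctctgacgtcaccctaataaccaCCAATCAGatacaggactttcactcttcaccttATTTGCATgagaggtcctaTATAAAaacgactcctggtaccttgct
HLA-DRB1 (chr6:32589849-32589978, minus strand): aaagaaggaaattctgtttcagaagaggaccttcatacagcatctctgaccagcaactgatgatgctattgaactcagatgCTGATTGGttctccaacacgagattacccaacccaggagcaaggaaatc
HLA-DQB1 (chr6:32666658-32666787, minus strand): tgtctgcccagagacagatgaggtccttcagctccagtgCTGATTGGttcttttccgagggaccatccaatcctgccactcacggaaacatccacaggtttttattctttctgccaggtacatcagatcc
CD79A (chr19:41877149-41877278, plus strand): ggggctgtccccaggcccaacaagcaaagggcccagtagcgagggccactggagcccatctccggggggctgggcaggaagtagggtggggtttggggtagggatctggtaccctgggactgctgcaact

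Among 59 histone promoters, 34 (57.6%) held TATAAA at -40 to -16 on the gene strand against 3.68% of all promoters, 21 (35.6%) held the octamer in the 250 bases before the start, on either strand, against 1.59%, and 24 (40.7%) held the Y box against 5.08%. Neighbouring H2A and H2B genes face away from each other and share a promoter, so these counts are not independent. Apart from HIST1H3D, the histone genes with the octamer were all H2A or H2B genes. HIST1H2BA, a germ cell H2B gene, held all 3 motifs too and stood at 0.426 FPKM, while HIST1H2BJ stood at 3122. The Y box was found in 7 of 16 promoters of the class II list (43.8%), among them that of the transcription factor gene RFX5. It was found in 4 of 14 class I promoters (28.6%), B2M and HLA-B among them. In class II, HLA-DRB1 and HLA-DQB1 are examples with the Y box. CD74, HLA-DPA1, HLA-DPB1 and HLA-DQA1 did not hold it, and no promoter was available for HLA-DRA. CD79A has no capitals in the window shown.

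Genes that define B cells were present in all 3 libraries, and CD79A and MS4A1 were abundant. CD79A had 377, 367 and 322 FPKM in controls 17, 18 and 28 (355 ± 29.5, SD, n = 3; rank 237), and these values lay close together. MS4A1, the CD20 antigen, had 92.4, 164 and 105 FPKM (121 ± 38.2), with control 18 apart from the other two. PAX5 had 15.1, 17.6 and 16.3 FPKM (16.3 ± 1.25), lower than these antigens and with less spread. CD79B had 213, 322 and 141 FPKM (225 ± 91.3) and spanned more than 2-fold between libraries. CR2, the complement receptor that the virus uses for entry, stood at 84.6 ± 18.0 FPKM and the inhibitory receptor CD22 at 52.6 ± 12.5. All 33 genes of the B cell receptor list were at or over 1 FPKM, against 55.1% of all protein-coding symbols. The list's median was 49.1, against 2.09. Downstream of the receptor, the kinase genes LYN, SYK and BTK stood at 66.4 ± 13.5, 15.3 ± 1.06 and 25.9 ± 3.73 FPKM, the adaptor BLNK at 49.3 ± 10.3, the phospholipase PLCG2 at 88.3 ± 19.98 and the lipid kinase subunit PIK3CD at 66.4 ± 11.2. The lowest members were the inhibitory Fc receptor FCGR2B at 1.26 FPKM and CD72 at 1.07. The files list 0 symbols of immunoglobulin constant or variable genes, so neither the isotype nor the light chain of the clone was described here.

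Markers of other blood cells and tissues were scarce. Of all protein-coding symbols 55.1% reached 1 FPKM, the share to set beside the counts below. Of 18 T cell markers 3 reached 1 FPKM, and the antigen receptor chains CD3D and CD3G and the co-receptor CD8B were listed at 0 in every library. The summed level of the T cell list was 9.28 to 15.2 FPKM over the 3 libraries, against 2185 to 2641 for the B cell receptor list. The latter holds 33 signalling genes and is no list of markers, so these sums do not compare like with like. The highest T cell marker, the co-stimulator ICOS, had 4.73, 9.87 and 3.74 FPKM. Of 17 natural killer and cytotoxic markers 1 reached 1 FPKM, NCR3 at 1.19 ± 0.298, with GZMA, GZMB and KLRF1 listed at 0 and a summed level of 2.24 to 3.35. Myeloid markers reached 1 FPKM in 5 of 21 cases with a sum of 13.8 to 23.2; the monocyte antigen CD14 and the calprotectin chain S100A8 were listed at 0. The sialic acid receptor CD33 had 4.52, 14.01 and 3.86 FPKM, highest in control 18, and the other calprotectin chain S100A9 had 8.03, 1.52 and 3.91, highest in control 17.

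The erythroid and platelet list (5 of 20 at or over 1 FPKM, sum 92.2 to 130) was carried by TFRC, the transferrin receptor of dividing cells, at 67.3 ± 18.7 FPKM. HBE1, the embryonic beta-like globin, had 19.6, 26.0 and 26.3 FPKM and the integrin chain ITGB3 had 19.1, 14.1 and 17.9, whereas HBB, HBA1, HBA2, PF4 and PPBP were listed at 0. HBG2 stood at 2.73 FPKM, but it is nearly identical to HBG1 and reads of the pair can be split. Of 24 epithelial and stromal markers 4 reached 1 FPKM (sum 33.1 to 49.6), with the smooth muscle actin ACTA2 at 34.3 ± 9.64 and EPCAM, COL1A2 and ALB listed at 0.

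**Figure D2:**
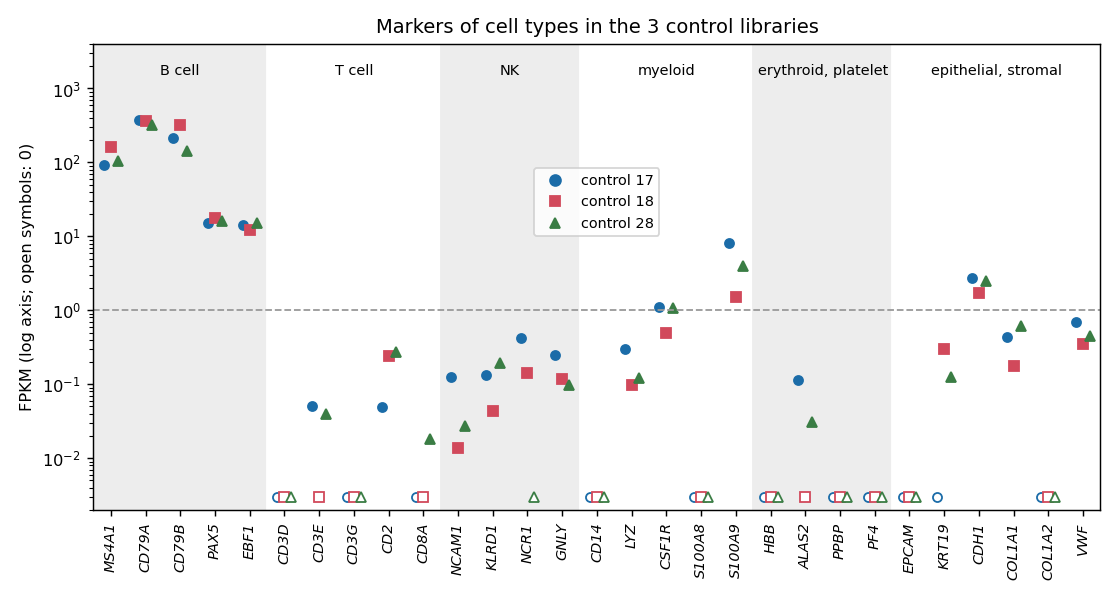
FPKM (log axis; open symbols at the bottom mark 0) of selected defining markers in the 3 control libraries, one symbol per library, with an FPKM of 1 dashed. The 5 B cell genes lie above 10 in every library, CD3D, CD14, PF4 and EPCAM are at 0 in all, and S100A9 and CDH1 are the highest of the other markers drawn.

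Among transcription factors, several known from activated B cells were high and several of germinal centre and naive cells were near 0. Of 40 B lineage factors 30 (75%) reached 1 FPKM (median 15.5), against 55.1% of all protein-coding symbols (median 2.09). The highest were ID2, an inhibitor of E proteins, at 188 ± 17.4, XBP1, a factor of the secretory programme, at 164 ± 23.2, and IRF4, a factor induced on activation, which had 120, 111 and 116 FPKM (116 ± 4.21), nearly the same in every library. MYC stood at 85.9 ± 17.2 and IRF8 at 91.3 ± 18.9. NF-kB subunits were ordered NFKB2 (75.3 ± 4.94), RELB (58.8 ± 5.54), NFKB1 (54.9 ± 1.93), RELA (14.9 ± 0.898) and REL (10.7 ± 1.31); RELB and NFKB1 did not differ beyond their spread. EBF1 stood at 13.8 ± 1.49, the octamer coactivator POU2AF1 at 16.3 ± 2.65 and SPIB at 16.2 ± 1.33, levels that overlap that of PAX5. At the low end, BCL6, the repressor of germinal centre cells, had 0.114, 0.0441 and 0.0911 FPKM, BACH2 0.0736, 0.0286 and 0.465, BCL11A 0.0916, 0.0589 and 0.170, and FOXP1 0.380, 0.185 and 0.0424. PRDM1, the plasma cell repressor, was at 0.721 ± 0.0428 and FOXO1 at 0.667 ± 0.151.

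Genes of the earliest B cell stages were mostly near 0 and plasma cell genes mostly present. For comparison, 55.1% of all protein-coding symbols reached 1 FPKM, with a median of 2.09. In the early B cell list 1 of 14 reached 1 FPKM, the tetraspanin CD9 at 29.4 ± 4.87, while DNTT, RAG2, CD34, KIT and ERG were listed at 0 and RAG1, the recombinase gene, stood at 0.0975. CRLF2 was listed at 0 as well; it has a copy on each sex chromosome, to which reads can be split. In the germinal centre list 5 of 13 reached 1, among them the chemokine receptor CXCR4 (93.0 ± 19.99), S1PR2 (11.0 ± 0.486), ELL3 (3.84) and CD38 (2.24). MME, which encodes CD10, was at 0.159 and SERPINA9 at 0.0317. Of 16 plasma cell genes 15 reached 1 FPKM, with a median of 25.7, and the member under 1 was PRDM1 at 0.721. Besides XBP1 and IRF4, those over 1 included the signal peptidase subunit SEC11C (272 ± 44.9), SLAMF7 (63.2 ± 18.9) and the BAFF and APRIL receptor TNFRSF17 (38.0 ± 15.7). Another was IGJ, the joining chain of secreted immunoglobulin, which had 26.1, 105 and 16.9 FPKM. Control 18 stood far above the others for IGJ.

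Leukaemia markers were mixed, with 20 of 31 (64.5%) at or over 1 FPKM and a median of 2.46. Over all protein-coding symbols the share was 55.1% and the median a close 2.09. FCER2, the CD23 antigen of both CLL and transformed B cells, had 553, 678 and 422 FPKM (551 ± 128). The cyclin CCND2 stood at 186 ± 17.1, CD52, the target of alemtuzumab, at 56.9 ± 17.2, CD200 at 31.3 ± 3.74 and CD5 at 15.5 ± 3.497. ZAP70, a T cell kinase whose presence is a CLL risk marker, had 19.3, 36.5 and 25.8 FPKM, all above 10. CD38 (2.24 ± 0.633), ROR1 (1.65, 0.816 and 2.51 FPKM) and the lipase LPL (0.708 ± 0.297) were near 1. Several genes known as high in CLL were at or near 0: TCL1A was listed at 0, LEF1 stood at 0.251, CD24 at 0.041, FMOD at 0.203, and FCRL1, FCRL2 and FCRL3 at 0.0189, 0.0183 and 0.177. SOX11 and CCND1, markers of mantle cell lymphoma, were at 0.00667 and 1.37.

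Genes of activation and of virus-driven growth stood high: 39 of 44 reached 1 FPKM and 17 reached 100, with a median of 67.9. Over all protein-coding symbols, 55.1% reached 1 and 3.83% reached 100, with a median of 2.09. The adhesion ligand CD48 had 1136, 1244 and 1046 FPKM (1142 ± 99.0) and CD70, the ligand of CD27, 726, 721 and 696 (714 ± 16.2). CD40 stood at 224 ± 53.6, the cytokine subunit EBI3 at 293 ± 27.2, the AP-1 factors BATF and BATF3 at 229 ± 56.9 and 169 ± 13.8, and the chemokine CCL3 at 406 ± 101. Feedback genes of NF-kB were present, NFKBIA at 163 ± 15.7, TNFAIP3 at 81.3 ± 7.03 and TRAF1 at 55.7 ± 5.25. MIR155HG, the host RNA of miR-155 and no protein-coding member, had 30.9, 54.1 and 46.5 FPKM. The other end of this list held the chemokine CCL17 (0.376), IL10 (0.124), the IL-2 receptor chain IL2RA (0.0131) and IL6, listed at 0.

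Receptors for survival and cytokine signals reached 1 FPKM in 30 of 34 cases (88.2%), against 55.1% of all protein-coding symbols. After CD40 the highest were the interferon gamma receptor chains IFNGR1 (112 ± 15.9) and IFNGR2 (87.1 ± 9.67), the death receptor TNFRSF10B (95.1 ± 8.49) and TNFRSF8, which encodes CD30 (79.5 ± 11.4). Of the BAFF family receptors, TNFRSF13B and TNFRSF13C stood at 20.2 ± 1.34 and 18.4 ± 3.80. The Toll-like receptor genes were ordered TLR10 (32.2 ± 6.44), TLR6 (10.3), TLR1 (7.28), TLR7 (1.39) and TLR9 (0.0788). TGFBR2, the type II receptor of the growth inhibitor TGF-beta, was at 0.00972, while its partner TGFBR1 was at 8.18. For homing, 22 of 28 genes (78.6%) reached 1 FPKM, against the same 55.1%. They were led by CD82 (434 ± 85.4), ICAM3 (431 ± 67.9) and CCR7 (261 ± 17.8), the receptor for lymph node entry. CXCR5, the follicle receptor, stood at 0.325. CD99 was at 0.0221; like CRLF2 it has a copy on each sex chromosome.

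Antigen presentation genes included some of the most abundant messages, with list medians of 37.3 FPKM for class II and 109 for class I. The median of all protein-coding symbols was 2.09, and 55.1% of them reached 1 FPKM. HLA-DRA, the alpha chain of the class II DR pair, had 2612, 2483 and 2492 FPKM (2529 ± 71.8, rank 63). The class II chaperone CD74 had 1492, 1588 and 1409 (1496 ± 89.8). HLA-DRB1 was less even at 990, 638 and 514 FPKM. CIITA, the master coactivator of these genes, had 7.38, 7.89 and 11.3 FPKM. HLA-DMA and HLA-DMB, which load peptide, stood at 14.3 ± 1.41 and 4.43, and 17 of the 19 class II genes reached 1. In class I all 18 reached 1, led by the light chain B2M (4363 ± 315), HLA-B (2051 ± 232) and HLA-C (640 ± 99.7); the transporter subunits TAP1 and TAP2 stood at 74.5 ± 8.90 and 16.3 ± 2.45. HLA genes vary between people and have close relatives, so reads of the clone's own alleles can be lost or split against a reference, and levels between HLA genes are uncertain.

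**Figure D3:**
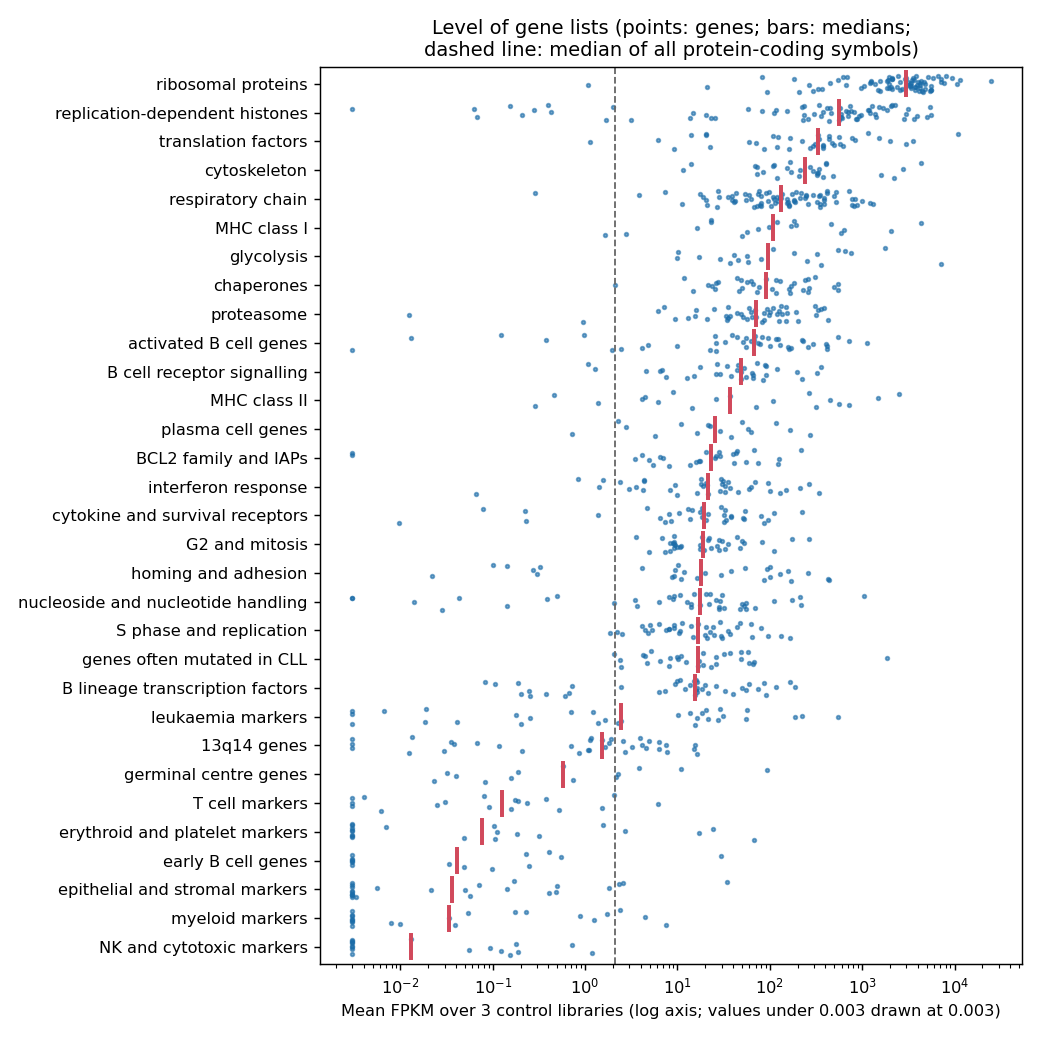
Mean FPKM over the 3 control libraries (log axis, values under 0.003 drawn at 0.003) of every member of the 31 gene lists, one point per gene, with the list's median as a red bar and the median of all protein-coding symbols, 2.09, dashed. Ribosomal proteins (median 2968) are at the top, markers of other cell types at the bottom, and the leukaemia markers spread from 0 to 551.

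Growth genes followed. Ribosomal protein genes held 38.9% of the summed protein-coding FPKM. RPS18 had 23943, 26381 and 23344 FPKM (24556 ± 1608, rank 1), RPS14 12080, 12635 and 9359 (11358 ± 1753) and RPLP0, a stalk protein, 10377, 11569 and 10363 (10770 ± 692). The elongation factor EEF1A1 had 11600, 12019 and 9394 FPKM (11004 ± 1411). Among the 30 highest genes, 22 encoded ribosomal proteins, and the others included GAPDH (7217 ± 85.7), the ribosome-bound scaffold GNB2L1 (5704 ± 640), B2M and the actin-binding peptide TMSB4X (4314 ± 715). Ribosomal genes have many processed copies: the pseudogene RPL13AP5 was listed at 13368 FPKM and RPL13A itself at 2111. How the authors' counting split such reads is not given in the sources used here, so levels within this family are uncertain.

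Histone genes were the next class. Replication-dependent histones held 9.24% of the summed FPKM, with 61 of 69 at or over 1 FPKM, 51 at or over 100 and a median of 560. The shares of all protein-coding symbols were 55.1% and 3.83%, and their median was 2.09. HIST1H2BC had 5437, 6604 and 4628 FPKM and HIST1H4C 4105, 6209 and 6043. Their messages end in a stem-loop instead of a poly(A) tail, and how RNA was selected is not given in the sources used here. They are also short, with a median transcript of 488 bases against 1789 over all genes, and division by length lifts short genes. The same holds for the ribosomal genes (683 bases) and for all genes at or over 1000 FPKM (715 bases); the part of length in these levels was not tested. Members of 1 histone type are nearly identical in their coding bases, so single histone genes are uncertain too.

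Cell cycle genes were all present. Each of the 39 S phase and replication genes and each of the 36 G2 and mitosis genes reached 1 FPKM. Their medians were 16.9 and 19.1. Over all protein-coding symbols the share was 55.1% and the median 2.09. The sliding clamp PCNA had 144, 169 and 180 FPKM (165 ± 18.3), the helicase subunits MCM5 and MCM7 stood at 132 ± 16.0 and 95.0 ± 15.8, the mitotic kinase gene CDK1 at 28.2 ± 0.815, and the proliferation marker MKI67 at 9.22 ± 1.31. All 20 glycolytic genes reached 1 (ENO1 at 1767 ± 322, LDHB at 756 ± 46.4 and LDHA at 251 ± 12.8), as did 79 of 80 nuclear respiratory chain genes (COX4I1 at 1322 ± 60.8). Both shares compare with the same 55.1%. The files hold 0 mitochondrially encoded symbols.

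Genes of the BCL2 family and the inhibitors of apoptosis were even between libraries. Their median SD over mean was 8.45%, the lowest of the 31 lists, against 13.6% for all genes at or over 1 FPKM. Of 28 members 26 reached 1 FPKM (92.9%), against 55.1% of all protein-coding symbols. Among the guardians, BCL2A1, an NF-kB target, had 122.7, 129 and 113 FPKM (121 ± 8.34), BCL2, the target of venetoclax, 56.8, 49.5 and 59.4 (55.2 ± 5.10), BCL2L1 28.5 ± 4.18 and MCL1 27.8 ± 3.19, the latter pair overlapping in their spread. Among the BH3-only sensitizers and activators, PMAIP1 had 223, 223 and 209 FPKM (218 ± 8.35), BBC3 66.7 ± 2.72, BMF 43.1 ± 5.33 and BCL2L11, which encodes BIM, 5.39 ± 0.902. The effectors BAX and BAK1 stood at 125 ± 13.5 and 41.4 ± 0.687. BOK and HRK were listed at 0.

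Genes that handle nucleosides bear on fludarabine, which enters cells through nucleoside transporters and is phosphorylated by deoxycytidine kinase. DCK, that kinase, had 13.8, 15.4 and 13.3 FPKM (14.2 ± 1.07, rank 4492), its mitochondrial relative DGUOK 55.2 ± 7.18. Of 6 SLC28 and SLC29 transporter genes, SLC29A1 alone reached 1 FPKM, at 25.4, 32.8 and 25.7 (27.9 ± 4.21). SLC29A3 was at 0.4999, SLC29A2 at 0.0429, SLC28A2 and SLC28A3 at 0.0281 and 0.0139, and SLC28A1 was listed at 0. The phosphatases that oppose DCK, NT5C2 and NT5C3, stood at 12.8 ± 0.429 and 21.7 ± 1.76. Adenosine deaminase, ADA, had 91.3, 91.1 and 150 FPKM, highest in control 28. The ribonucleotide reductase subunits RRM1, RRM2 and RRM2B stood at 47.4 ± 2.78, 10.6 ± 2.84 and 26.1 ± 3.28, and the triphosphate hydrolase SAMHD1, also a gene mutated in CLL, at 2.30, 2.001 and 1.88 FPKM. The cytidine deaminase gene CDA was at 0.143, the exporter ABCB1 at 3.65 ± 0.331, and ABCG2 was listed at 0. NME2 was the highest of the 41 genes at 1034 ± 148 FPKM, but it is a close relative of NME1 (175 ± 38.9) and the split is uncertain. Of these 41 genes 33 reached 1 FPKM (80.5%), against 55.1% of all protein-coding symbols.

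All 30 genes often mutated in CLL reached 1 FPKM, against 55.1% of all protein-coding symbols. Their median was 16.8, against 2.09. After RPS15 (1851 FPKM) came the NF-kB inhibitor NFKBIE (66.8 ± 11.1) and the splicing factor SF3B1, which had 70.5, 67.9 and 60.8 FPKM (66.4 ± 5.02). NOTCH1 had 19.5, 11.0 and 20.7 FPKM, ATM 8.13, 7.96 and 8.70 and BRAF 7.79, 10.6 and 12.3. The adaptor MYD88 was low at 2.36 ± 0.927. These are levels only and say nothing of sequence.

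Chromosome 13 band q14 is often lost in CLL, and its genes were followed in map order. Of 35 protein-coding genes 22 reached 1 FPKM (62.9%, against 55.1% of all protein-coding symbols). Coming from the centromere, RB1, the tumour suppressor, had 4.35, 7.46 and 7.04 FPKM, EBPL 14.7, 16.6 and 17.8, KPNA3 3.59, 4.96 and 6.11, and SPRYD7 1.77, 1.48 and 1.31. The symbols that followed were near or at 0: the RNA gene DLEU2, host of miR-15a and miR-16-1, had 0.0511, 0 and 0.1227 FPKM, TRIM13 0.273, 0.236 and 0.118, KCNRG 0.0494, 0 and 0.0396, and DLEU1 and DLEU7 were listed at 0. RNASEH2B, farther on, had 14.3, 17.8 and 14.8 FPKM and INTS6 4.42, 4.58 and 4.54. Other genes of the band were low too: before this stretch LPAR6 stood at 0.0381, ARL11 at 0.0123 and MLNR at 0. After it FAM124A stood at 0.0132, ATP7B at 0.117 and SERPINE3 at 0. Those lay singly or in short runs, whereas every listed symbol from DLEU2 to RNASEH2B-AS1 stood under 1 FPKM. The cause of the low levels in this stretch was not tested. The state of the DNA there was not measured.

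Promoters differed with level in their base composition. The median ratio of observed to expected CpG in the windows from 250 bases before to 50 bases after the start was 0.31 for genes listed at 0, 0.61 for those under 1 FPKM and 0.84, 0.86, 0.84 and 0.88 for the classes from 1 to 10, 10 to 100, 100 to 1000 and at or over 1000. Lists of B cell biology differed among themselves: the median was 0.20 for class II genes, 0.42 for activated B cell genes and 0.44 for the B cell receptor list, but 0.71 for germinal centre genes, 0.72 for plasma cell genes and 0.80 for B lineage transcription factors. It was 0.91 for ribosomal proteins and 0.95 for S phase genes. These are descriptions over genes, which are not independent.

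Between libraries, most genes kept their level. Over the 10392 genes the median SD over mean was 13.6%, and it was 16.4% for genes from 1 to 10 FPKM, 11.8% from 10 to 100, 11.9% from 100 to 1000 and 15.4% at or over 1000. Pearson's r of log2(FPKM + 1) across genes was 0.980 to 0.982 for the 3 pairs of libraries. A range over 2-fold on log2(FPKM + 1) was seen for 377 genes, 3.63%. The pairs gave 210 such genes between controls 17 and 18, 173 between 17 and 28, and 144 between 18 and 28; without control 17, 18 or 28 the number was 145, 176 and 212, as a range over fewer libraries is smaller.

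The steadiest genes at or over 10 FPKM included the proteasome subunit PSMA2, with 125 FPKM in all 3 libraries (SD 0.0848), the haem synthesis enzyme UROD (28.98 ± 0.0432) and the segregase VCP (105 ± 0.230). BASP1, CYSTM1, PHF15, MAP3K11, B4GALT3, RAB3GAP1 and ZBTB2 completed the 10 steadiest. They are the smallest of 5551 values and are given as such.

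The most variable genes were few and often rested on 1 library. HIST1H4F had 5.88, 166 and 1.26 FPKM and SERPINA1, a protease inhibitor, 4.99, 28.2 and 5.71, both high in control 18, as was IGJ. The heat shock gene HSPA1B had 28.9, 2.96 and 3.12 FPKM, high in control 17; it is nearly identical to HSPA1A. The cancer-testis gene CSAG1 (37.3, 8.89 and 10.5 FPKM) and the aldolase ALDOC (98.6, 36.9 and 34.1) were high in the same library. Control 28 was low for MTFMT, the mitochondrial formyltransferase (206, 253 and 14.8 FPKM), for the GTPase NUGGC (260, 326 and 20.3) and for USP29 (42.2, 73.6 and 2.93). ANKRD28 had 12.96, 0 and 17.2 FPKM, and it was the only gene at or over 10 in the mean of the other libraries and listed at 0 in one; an exact 0 in FPKM can be a failed estimate. OR2V1, an olfactory receptor symbol, had 7.38, 25.6 and 9.56.

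Other genes also set 1 library apart. Control 17 was low for the kinase subunit PRKACA (6.001, 14.5 and 22.2 FPKM), the poly(A)-binding protein PABPC1 (194, 509 and 428) and the interferon receptor chain IFNAR2 (8.30, 19.2 and 27.7). Control 18 was low for TFF2 (56.5, 15.7 and 53.4) and the collagen COL5A3 (30.4, 13.2 and 37.3). Control 28 was high for the polymerase subunit POLR2A (12.8, 12.4 and 25.5), MPZL1 (10.01, 12.6 and 24.5) and the splicing coactivator SRRM2 (9.12, 8.36 and 17.2).

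**Figure D4:**
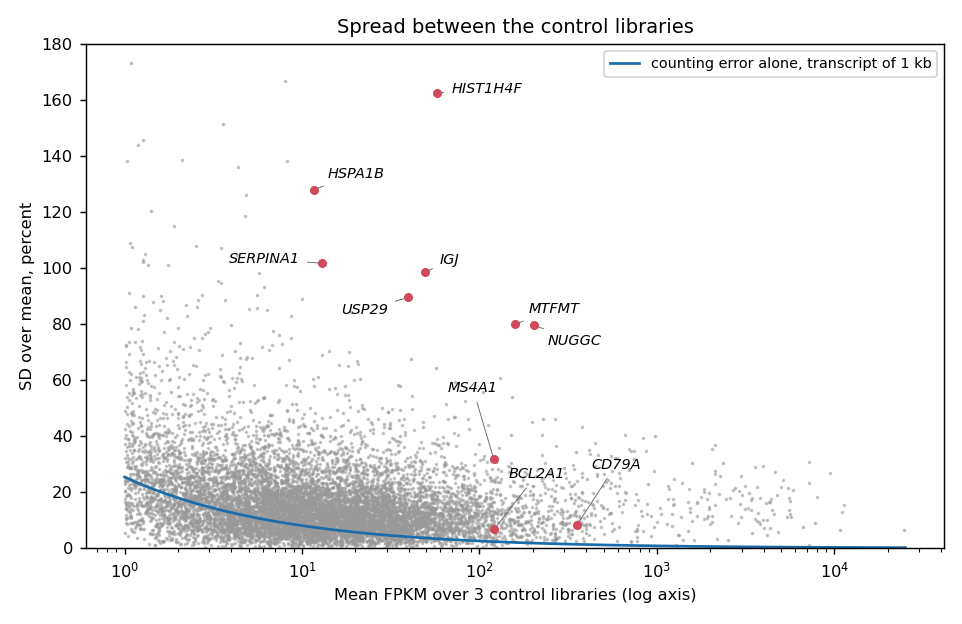
SD over mean in percent against mean FPKM (log axis) for the 10392 genes at or over 1 FPKM, one grey point per gene, with selected genes in red and the counting error of a 1-kb transcript at the mean depth as the blue line. Most genes lie under 40%, CD79A and BCL2A1 lie low, and HIST1H4F, HSPA1B, IGJ, MTFMT and NUGGC lie far above genes of their level.

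Members of some lists stood highest or lowest in the same library. All 20 glycolytic genes were highest in control 17, where 32.8% of all genes at or over 1 FPKM were; TPI1 had 739, 535 and 377 FPKM and ENO1 2117, 1703 and 1483. Of 35 chaperone genes 25 were also highest there. In control 18, 49 of 61 histone genes, 27 of 37 interferon response genes and 10 of 15 plasma cell genes were highest, against 33.9% of all; the interferon-induced IFITM1 had 254, 444 and 319 FPKM and the ubiquitin-like ISG15 215, 308 and 279. In control 28, 71 of 83 ribosomal genes were lowest, against 36.1% of all, with RPL36 at 8504, 8515 and 4667.

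The counts, and the shares of all genes they are read against, both depend on how the libraries are scaled. Rescaling each library to the same protein-coding sum moved the median of all genes by -0.03, -0.10 and 0.13 on the log2 scale in controls 17, 18 and 28. Under it, 26.5% of all genes were highest in control 17, against 17 of 20 glycolytic genes and 22 of 35 chaperones. In control 18, 15.8% of all genes were highest, against 42 of 61 histones, 17 of 37 interferon genes and 8 of 15 plasma cell genes. In control 28, 14.8% of all genes were lowest, against 56 of 83 ribosomal genes. Scaling by the median ratio of genes gave 20 glycolytic genes and 25 chaperones highest in control 17 (34.2% of all genes), 49 histones, 27 interferon genes and 10 plasma cell genes highest in control 18 (30.7%), and 70 ribosomal genes lowest in control 28 (34.3%). With 1 library per pool, a difference between pools and a difference between libraries cannot be told apart.

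**Figure D5:**
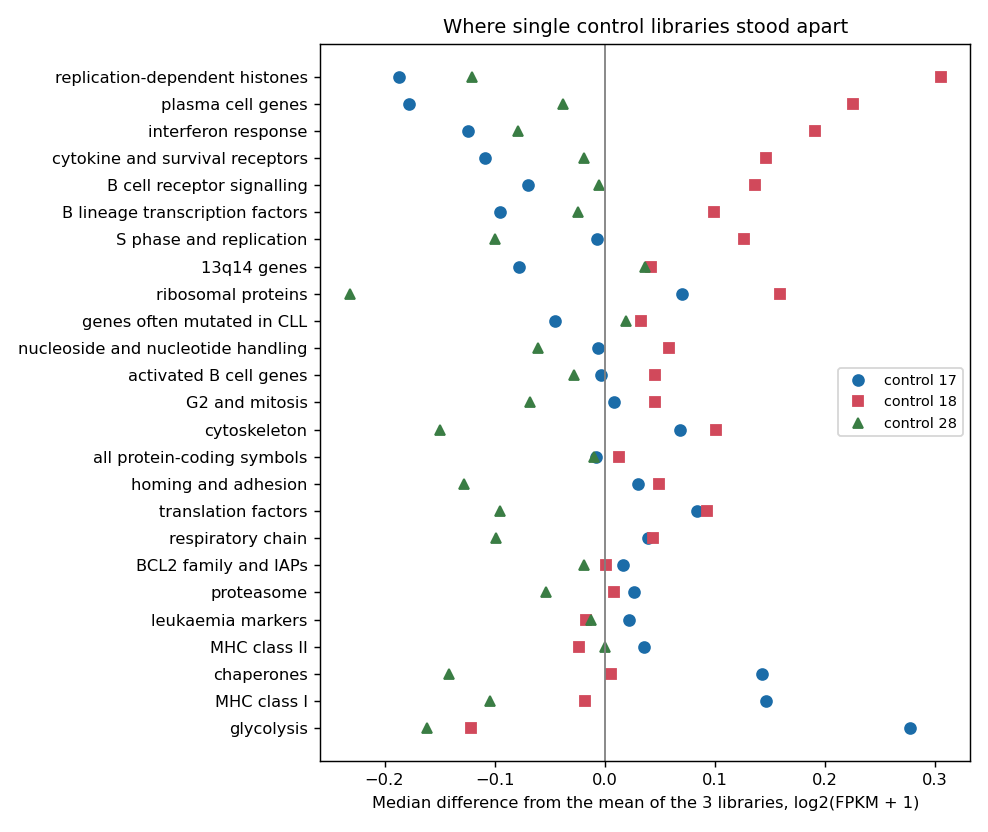
Median difference of each list from the mean of the 3 libraries on log2(FPKM + 1) as deposited, one symbol per library, for lists with at least 15 genes at or over 1 FPKM; 0 is the mean of the libraries. Control 18 is farthest right for histones (0.31), control 17 for glycolysis (0.28), and control 28 is farthest left for ribosomal proteins (-0.23), while the row of all protein-coding symbols lies near 0.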

How the data were processed

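The values used were FPKM per gene symbol in the 3 control libraries, as deposited by the authors, per the file headers, with decimal commas. The build was hg19, and the tools named were Cufflinks 2.2.1, TopHat2 2.0.4, DESeq2 and HTSeq 0.6.1, per the submitters' processing notes; what each tool did, the annotation, strand and read length: not given in the sources used here. FPKM are scaled by length and library, and no count model was fitted. The members and lists were chosen with earlier results of these data known.

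Symbols starting MIR, SNOR, SCARNA, RNU, RNY, VTRNA or RN7S, and RMRP and RPPH1, were left out (1722), leaving 21897. RefSeq gene types on GRCh38.p14 gave 18874 protein-coding symbols (17424 by current symbol, 1392 by an older one, 58 by a name that several genes share); 2102 had another type and 921 did not match. Transcript lengths came from GENCODE release 29. Because the builds differ, only promoter windows carry coordinates. A gene counted as detected at a mean FPKM of at least 1. Ranges used log2(FPKM + 1), and the pseudocount understates folds of low genes. Errors are SD over 3 libraries. With 1 group, no test was run. Depth came from the FPKM of 1 fragment, by a method tested on simulated data.

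Genes named were the 30 highest, MS4A1, CD79A and PAX5, up to 8 highest members of each of 31 lists and members at 0 or under 1 that set a check, the 10 largest and 10 smallest SD over mean at a mean of at least 10, and per library the 3 farthest above and below the others. Not every gene that the rule allows is printed, some are not reported here, and other list members were chosen after their values were seen. Python 3.11.15, pandas 2.3.3, numpy 2.4.6 and matplotlib 3.10.9 were used. Alternatives were other minimums, pseudocounts, filters and scalings, and leaving out each library.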

Additional observations from a re-analysis of the deposited data

How the results depend on the processing

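Of 44 values computed for the main results under other settings, 32 stayed within the limits set and 12 moved. The median SD over mean of 13.6% became 15.8% after rescaling to the same protein-coding sum, 20.3% with no filter on low values and 11.8% among genes at a mean FPKM of at least 10; leaving out 1 library gave 10.6% to 12.1%. The 377 genes over a 2-fold range became 561 after rescaling to the same protein-coding sum, a change still counted as within the limits set. Scaling by the median ratio of genes gave 375. The number was 678 with a pseudocount of 0.1, 124 with 5 and 155 among genes at a mean of at least 10. Leaving out 1 library gave 145 to 212. Fewer libraries give a smaller range by construction. The number of detected genes ran from 7647 (minimum 5) to 11043 (minimum 0.5). Of the 991 list members, 819 reached 1 FPKM, and 816 to 819 did when 1 library was left out. Of the 30 highest genes, 27 to 30 stayed among the highest under each setting. No paired analysis was possible because only the control group was described and the results come from no test. Counting error limits single genes near 1 FPKM, and levels under the value of 3 fragments cannot be ordered.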

Other observations

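Cytoskeletal genes formed another abundant group: all 28 reached 10 FPKM, against 29.4% of all protein-coding symbols. Their median was 243, against 2.09. The beta actin gene ACTB had 1728, 2481 and 2468 FPKM in controls 17, 18 and 28, lowest in control 17, and the gamma actin gene ACTG1 1652, 1635 and 1560, with little spread, though these messages are close in sequence and can share reads. The thymosin TMSB10 stood at 2755 ± 587 FPKM and vimentin, VIM, at 401 ± 45.9. Of 47 proteasome genes 45 reached 1 FPKM, the activator subunits PSME2 and PSME1 standing at 424 ± 49.5 and 336 ± 39.5 and the testis subunit PSMA8 at 0.959. The immunoproteasome genes PSMB10 and PSMB8 had 191 ± 18.4 and 120 ± 10.4 FPKM. The constitutive PSMB5 had 150 ± 10.4, and pairs of matching subunits were not compared. Among interferon response genes 37 of 39 reached 1 FPKM (94.9%, against 55.1% of all protein-coding symbols). MX1 stood at 210 ± 16.2 and MX2 at 68.3 ± 9.21, whereas GBP1 stood at 0.0653 and GBP2 at 0.847.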
